A study of Rattus norvegicus with 47 samples.

Results

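Haemoglobin and erythroid transcripts were followed in the prefrontal cortex of newborn rats through 4 gene IDs of the count table. They were given in advance by Ensembl ID, in the order of a pair of alpha globin genes, 1 beta globin gene and Alas2. All 4 of 4 IDs were among the 32883 gene IDs of the table, and 3 of the 4 passed the filter on low counts. They are called here alpha globin row A (ENSRNOG00000047321), alpha globin row B (ENSRNOG00000029886), the row given as beta globin (ENSRNOG00000047098) and Alas2 (ENSRNOG00000000167). The table does not pair IDs with names, so these names come with the choice of the members and could not be checked here. For the same reason the labelled tissue was not checked against markers of cortex, vessel, meninges, choroid plexus or white blood cells.

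The study exposed pregnant rats daily to flame retardants and took brain tissue of the offspring on postnatal day 1. BFR is the brominated pair EH-TBB with BEH-TEBP, given at 1000 µg. OPFR is triphenyl phosphate together with isopropylated triphenyl phosphate, also given at 1000 µg. FM550 is the commercial FireMaster mixture itself, given at 2000 µg, so the doses of the exposed groups are not all equal, and the controls received none of these agents. Control, BFR and FM550 had 6 females and 6 males each, and OPFR had 5 females and 6 males, 47 libraries in all. No source used here gives the rat strain, the vehicle or the litter of each animal. Total counts were 41.1 to 73.4 M reads per library, with a median of 57.4 M. Controls whose sample titles carry the numbers 1 to 7 (5 males and 2 females) are shown apart where levels are given by treatment, because earlier work on these data found them to differ from the other libraries in many genes. The labels do not call them a batch.

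Haemoglobin carries oxygen in red blood cells and is built from alpha and beta globin chains, each holding a haem group. Alas2 encodes the erythroid form of 5-aminolevulinate synthase, the first and rate-limiting enzyme of haem synthesis in red cell precursors. Mature mammalian red cells have no nucleus, but reticulocytes, the young red cells that are frequent in the blood of newborn rodents, still hold globin and Alas2 mRNA. Transcripts of both kinds in dissected brain are therefore commonly read as a measure of blood left in the tissue. Neurons and glia can also transcribe some globin. In bulk tissue, fewer blood cells and less of these RNAs per cell cannot be told apart.

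The DNA just upstream of the alpha globin genes is shown here as background. The alpha globin rows moved together between libraries, and whether this DNA plays a part in that was not tested. RefSeq (assembly GRCr8) places 3 alpha globin genes, Hba-a1, Hba-a2 and Hba-a3, on chromosome 10, minus strand. Which of them each ID stands for was not settled. The 250 bases before the transcription start are given 5′ to 3′ for Hba-a1 at chr10:15842581-15842830 and for Hba-a2 at chr10:15829139-15829388. Capitals mark matches on either strand to GATAA (the core bound by GATA factors), to the CCAAT box, to the CACCC box and to ATATAA (a form of the TATA box).
Hba-a1: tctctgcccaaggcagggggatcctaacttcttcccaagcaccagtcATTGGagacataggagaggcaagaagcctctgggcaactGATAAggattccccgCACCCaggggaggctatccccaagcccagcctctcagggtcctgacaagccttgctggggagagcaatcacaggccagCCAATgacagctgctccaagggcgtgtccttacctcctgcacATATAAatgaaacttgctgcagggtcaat
Hba-a2: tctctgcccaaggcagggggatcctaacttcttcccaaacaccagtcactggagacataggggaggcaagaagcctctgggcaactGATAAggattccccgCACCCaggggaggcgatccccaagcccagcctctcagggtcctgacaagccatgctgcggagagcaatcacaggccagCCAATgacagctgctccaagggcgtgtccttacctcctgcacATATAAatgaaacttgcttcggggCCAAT
These windows were identical at 241 of 250 aligned bases (96.4%). Against the window of Hba-a3 the identity was 66.4% for Hba-a1 and 65.5% for Hba-a2. Both printed windows held 1 match to GATAA, 164 bases before the start, 1 to CACCC at 149 bases and 1 to ATATAA at 29 bases, and each held 2 to CCAAT. Among 33469 RefSeq windows of 250 bases, 23.5% held the letters GATAA, 34.0% the CCAAT box, 49.2% the CACCC box and 9.95% the letters ATATAA, on either strand. A match describes the letters only. No source used here says how reads that match more than 1 alpha globin gene were counted, and the transcripts were not compared, so the split between row A and row B is uncertain.

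The alpha globin rows were measured deeply in every library. Levels are given as CPM, the usual scaling of read counts to library size, with library sizes scaled by the trimmed mean of M-values (TMM). They are not divided by gene length and are compared between libraries, not between genes. Alpha globin row A ranged from 91.7 CPM in BFR male 3 to 474.4 CPM in OPFR male 5, with a median of 194.4 CPM over the 47 libraries. Alpha globin row B ranged from 247.6 to 1019 CPM in the same libraries, with a median of 425.5 CPM. The highest library thus held 5.17 times the lowest for row A and 4.12 times for row B.

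Alas2 varied between libraries more widely than either alpha row. It ranged from 6.06 CPM in OPFR male 3 to 39.2 CPM in FM550 male 6, with a median of 13.1 CPM, so the highest library held 6.47 times the lowest.

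The row given as beta globin held almost no reads. It had between 0 and 20 reads per library, with a median of 0.0845 CPM and a highest value of 0.318 CPM in OPFR male 5. The count of 0 in BFR female 1 allows up to 0.0513 CPM (3 counts), for counting error only. RefSeq lists 5 adult-type beta globin symbols, and the upstream windows of 4 of them (Hbb-b1, Hbb-b2, Hbb-bs and Hbbl1) are 93.3 to 98.4% identical. Beta chains pair with alpha chains in haemoglobin, yet the alpha rows were abundant and this row was not. No source used here says how reads that match more than 1 beta globin gene were counted. Whether the name or the counting of reads plays a part in the low levels was not tested. The row is therefore called by how it was given, and nothing about beta globin is read from it.

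Together the 3 globin rows took between 0.0351% and 0.1541% of counted reads. The lowest share was that of BFR male 3 (95% Wilson interval 0.0347 to 0.0356%) and the highest that of OPFR male 5 (0.153 to 0.155%). These intervals cover counting error only and are far narrower than the differences between libraries.

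By treatment, the controls numbered 1 to 7 had the highest median for both alpha rows and Alas2, and every group overlapped with its neighbour in the order of medians. For alpha globin row A these 7 controls had a lowest, median and highest level of 181, 305.5 and 360.4 CPM. The other 5 controls measured 195.6, 100.2, 214.8 and 204.5 CPM in females 3 to 6 and 162.9 CPM in male 6. In the BFR libraries the lowest, median and highest were 91.7, 170.1 and 261.6 CPM (n = 12). In the OPFR libraries they were 128.9, 194.7 and 474.4 CPM (n = 11), and in the FM550 libraries 152.3, 194.8 and 351.8 CPM (n = 12). The medians of the other 5 controls, FM550 and OPFR lay within 1 CPM of one another, and only BFR lay below them. The first 7 controls overlapped with every other group.

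Alpha globin row B showed nearly the same picture. Its median was 713.1 CPM in the controls numbered 1 to 7 (429.3 to 863.8). The other 5 controls measured 419.5, 255.5, 479.0 and 485.7 CPM in females 3 to 6 and 386.8 CPM in male 6. Medians were 424.6 CPM in OPFR (253.7 to 1019), 408.0 CPM in BFR (247.6 to 614.7) and 398.8 CPM in FM550 (338.5 to 874.6). Outside the first 7 controls, the group medians therefore lay close together, while OPFR spread the most widely.

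The order of groups for Alas2 began with the same controls. Its median was 15.6 CPM in the controls numbered 1 to 7 (9.03 to 25.8). The other 5 controls measured 9.75, 6.50, 15.2 and 16.5 CPM in females 3 to 6 and 13.0 CPM in male 6. Medians were 14.6 CPM in OPFR (6.06 to 28.5), 12.4 CPM in FM550 (9.46 to 39.2) and 12.1 CPM in BFR (9.83 to 22.1). Among the 7 first controls, males 1 and 4 and female 2 lay at 21.6 to 25.8 CPM, and the other 4 at 9.03 to 15.6 CPM.

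**Figure D1:**
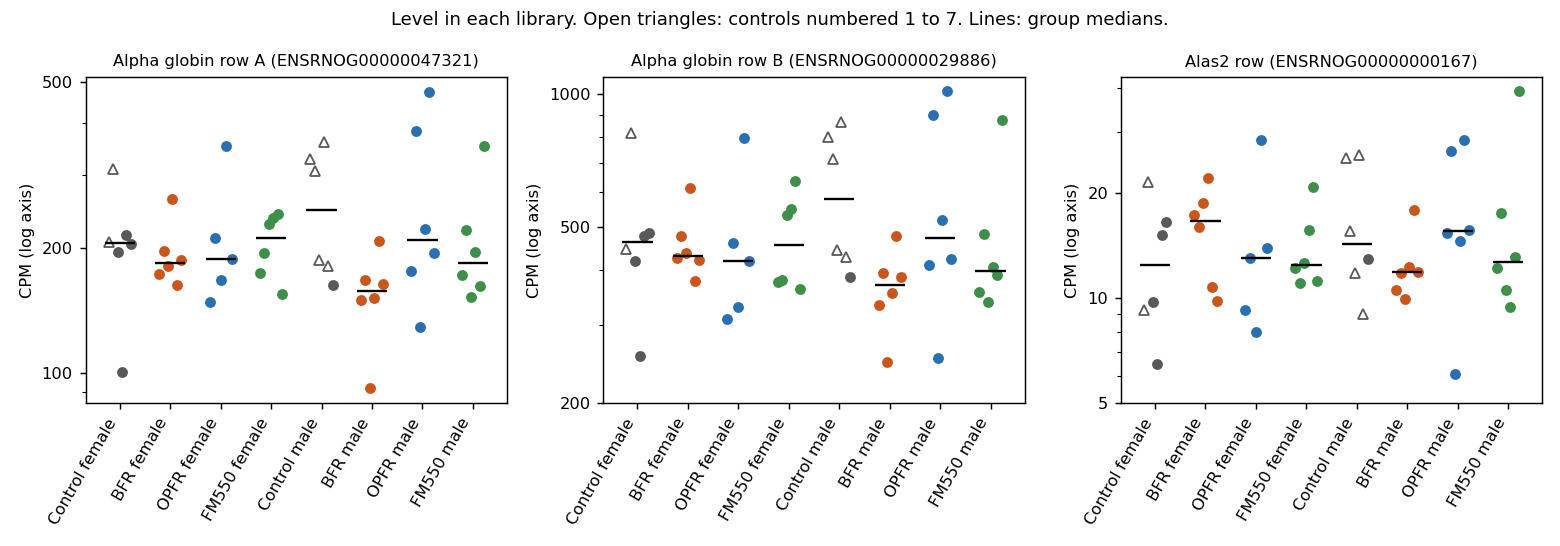
CPM of alpha globin row A, alpha globin row B and Alas2 in each library, on log axes, by treatment and sex. Each point is 1 library, open triangles are controls numbered 1 to 7 and lines are group medians. A few high libraries stand above the rest in the control, OPFR and FM550 groups, and all groups overlap.

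The high libraries were largely the same for all 3 abundant members. For each alpha row, 8 libraries lay above 1.5 times the median of the 47: control males 1, 2 and 4, control female 2, OPFR males 2 and 5, OPFR female 4 and FM550 male 6. For Alas2 there were 9, and 7 libraries were high for all 3 members. Of these 8 alpha-high libraries, 4 were controls numbered 1 to 7, 0 were other controls, 0 were BFR, 3 were OPFR and 1 was FM550. Alas2 was also high in BFR female 4 and FM550 female 5 and was not in control male 2.

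No member was called in any of the exposure comparisons at a Benjamini-Hochberg adjusted p below 0.05 in edgeR's quasi-likelihood test. Averaged over the sexes, 0 of the 3 tested members were called for BFR against control, where 12.4% of the 17135 tested IDs were. The count was also 0 of 3 for OPFR (19.3% of all tested) and 0 of 3 for FM550 (8.13% of all tested). At an unadjusted p below 0.05 there were 2 members for BFR and 0 for each of the other exposures. DESeq2 and limma voom with sample weights called 0 of 3 in each of these comparisons as well. All comparisons with controls share the control libraries.

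For BFR against control over both sexes, the log2 fold change was -0.40 ± 0.18 (SE) for alpha globin row A (edgeR adjusted p = 0.1455). It was -0.40 ± 0.19 for alpha globin row B and -0.08 ± 0.24 for Alas2. Without the controls numbered 1 to 7 these 3 values were 0.03, 0.05 and 0.17, so each changed sign. That fit keeps only 1 control male, so these signs are not read as a reversal. The same limit holds for the values without those controls given below for OPFR and FM550. With limma voom the values for rows A and B were smaller, at -0.24 and -0.23, and Alas2 was at 0.10. For OPFR against control the values were 0.05 ± 0.19, -0.05 ± 0.20 and 0.12 ± 0.24 for row A, row B and Alas2. Without those controls they were 0.47, 0.39 and 0.36, without OPFR female 4 they were -0.08, -0.20 and -0.09, and with limma voom they were -0.09, -0.23 and -0.14. For FM550 against control the values were -0.14 ± 0.18, -0.19 ± 0.19 and 0.05 ± 0.24, and 0.28, 0.25 and 0.30 without those controls. With limma voom row A was at -0.08. The fitted position of the alpha rows relative to control thus depended on which controls entered. With 1 control male left, its direction without the first 7 controls was not settled. Whether the other differences between the first 7 controls and the rest play a part was not tested.

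Within males, BFR against control gave the lowest adjusted p-values of any exposure comparison. The BFR males measured 91.7, 157.7 and 207.4 CPM (lowest, median and highest, n = 6) for alpha globin row A, against 162.9, 246.0 and 360.4 CPM in control males (n = 6). For alpha globin row B the BFR males measured 247.6, 370.5 and 476.9 CPM, against 386.8, 578.4 and 863.8 CPM. Of the control males only male 6, the lowest for both rows, lies outside the controls numbered 1 to 7. The groups overlapped for both rows, since BFR male 5 lay above control males 3, 5 and 6. The log2 fold change was -0.71 ± 0.26 (SE) for row A (edgeR adjusted p = 0.0699) and -0.73 ± 0.27 for row B (edgeR adjusted p = 0.0802). For Alas2 it was -0.43 ± 0.33 (edgeR adjusted p = 0.458), and -0.23 with limma voom. None of the 3 was called, against 9.95% of all tested IDs, and 2 had an unadjusted p below 0.05.

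This comparison rested on control males 1 to 5, all of which are among the controls numbered 1 to 7. With a term for the controls numbered 1 to 7, the values in males were -0.18 ± 0.35 for row A, -0.15 ± 0.37 for row B and -0.10 ± 0.47 for Alas2. Without those controls, which leaves control male 6 alone and takes its spread from the other groups, they were -0.07 ± 0.47, -0.08 ± 0.49 and -0.06 ± 0.62. In the opposite direction, without control male 6 both alpha rows were called: row A at -0.81 (edgeR adjusted p = 0.0294) and row B at -0.83 (edgeR adjusted p = 0.0359). Row A was also called at -0.71 without the OPFR libraries numbered 31 to 35 (edgeR adjusted p = 0.0430). Row B was called at -0.73 in a fit of only the BFR and control males (edgeR adjusted p = 0.0451). In these last fits the fold change stayed within 0.01 of its value with all libraries, and the SE was 0.24 and 0.20 in place of 0.26 and 0.27. The share of all tested IDs called in males is given above for the fit of all libraries only, and not for the fits that called alpha rows.

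The other comparisons within a sex gave 0 of 3 members called. For BFR females (0% of all tested called) the log2 fold changes were -0.08 ± 0.26 for row A, -0.07 ± 0.27 for row B and 0.27 ± 0.33 for Alas2. OPFR females (3.1% called) lay between -0.06 and 0.15 and OPFR males (12.5% called) between -0.05 and 0.09 over the 3 members. FM550 females (0% called) lay between -0.03 and 0.09, and FM550 males (11.8% called) between -0.35 and 0.02. At an unadjusted p below 0.05 there were 0 members in each, and DESeq2 and limma voom called 0. In OPFR males, for example, the 95% interval for row A ran from -0.47 to 0.57, so these data do not resolve differences within that range.

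The test of a difference between the sexes in the response called 0 of 3 members for BFR, OPFR and FM550, and 0% of all tested IDs in each. For BFR the female minus male difference in log2 fold change was 0.62 ± 0.36 for row A, 0.66 ± 0.39 for row B and 0.70 ± 0.47 for Alas2 (lowest edgeR adjusted p = 0.956). Females against males over all treatments gave -0.08 ± 0.13, -0.09 ± 0.14 and -0.14 ± 0.17, with 0 of 3 called against 0.128% of all tested IDs. No member had an unadjusted p below 0.05 in these 4 tests, and DESeq2 and limma voom called 0.

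Between the exposed groups, a comparison that uses no control library, the fitted values of OPFR were higher than those of BFR without a call. Over both sexes the log2 fold change of OPFR against BFR was 0.45 ± 0.19 for alpha globin row A (edgeR adjusted p = 0.1465), 0.35 ± 0.20 for row B and 0.20 ± 0.24 for Alas2. None of the 3 was called (4.75% of all tested IDs were), 1 had an unadjusted p below 0.05, and DESeq2 and limma voom called 0. Without the OPFR libraries numbered 31 to 35 the values were 0.20, 0.08 and -0.15, and without OPFR females 4 and 5 they were 0.31, 0.18 and -0.07. Without OPFR female 4 row B was at 0.20 and Alas2 at -0.0046. With limma voom the 3 values were 0.15, 0.0039 and -0.24. The row given as beta globin had a value of 0.70 ± 0.37 in a fit without the low-count filter (edgeR adjusted p = 0.353), from at most 20 reads per library. FM550 against BFR gave 0.25, 0.21 and 0.14 for row A, row B and Alas2, with 0 of 3 called (0.204% of all tested). FM550 against OPFR gave -0.20, -0.14 and -0.06, with 0 of 3 called (0.00584% of all tested), and in both of these comparisons 0 had an unadjusted p below 0.05 and DESeq2 and limma voom called 0.

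**Figure D2:**
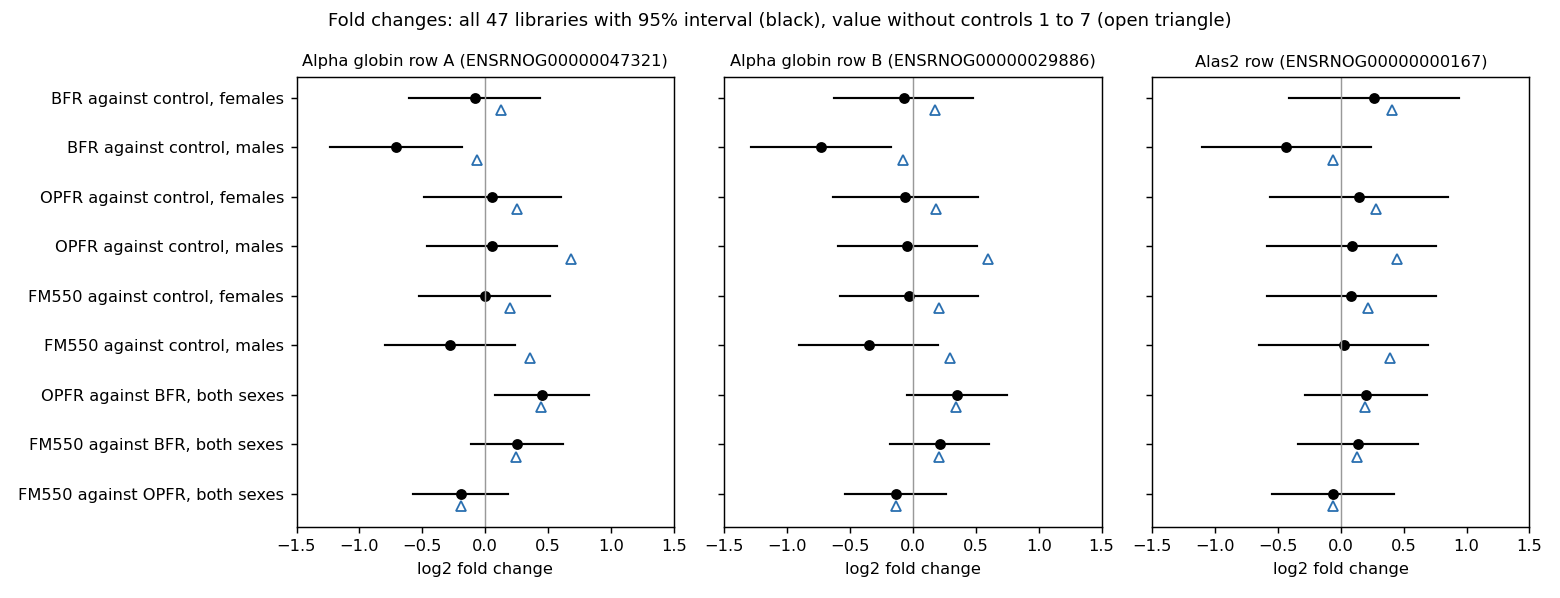
Log2 fold changes of alpha globin row A, alpha globin row B and Alas2 in 9 comparisons. Black points and lines are estimates from all 47 libraries with 95% intervals. Open triangles are the values without controls numbered 1 to 7, which leaves 1 control male. The triangles lie to the right of the points in each comparison with controls and on them, nearly, between exposed groups.

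Among the 12 controls alone, with sex in the model, the fitted values of the controls numbered 1 to 7 were above those of the other 5 for all 3 members, without a call. The log2 difference was 0.61 ± 0.26 for alpha globin row A (edgeR adjusted p = 0.130), 0.67 ± 0.26 for row B (edgeR adjusted p = 0.0962) and 0.39 ± 0.36 for Alas2 (edgeR adjusted p = 0.525). None of the 3 was called, against 16.7% of the 16160 IDs tested there, and 2 had an unadjusted p below 0.05. DESeq2 and limma voom were not run on the divisions by title number. Without control female 2 the values for row A, row B and Alas2 were 0.48, 0.44 and 0.04, and without control female 1 they were 0.77, 0.87 and 0.64. The groups overlapped, because control males 3 and 5 and control female 1 of the first 7 measured 181.0 to 206.2 CPM for row A, within the range of the other 5.

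A second division by title number lies within OPFR. It was cut where earlier work on these data found a break, so calls across it are not independent of that choice. The 6 OPFR libraries numbered 25 to 30 measured 128.9, 171.9 and 382.8 CPM for row A (lowest, median and highest). The 5 numbered 31 to 35 measured 221.9, 474.4 and 194.7 CPM in males 4 to 6 and 350.8 and 187.5 CPM in females 4 and 5. The sets overlapped, because OPFR male 2 and OPFR female 2 of the first set lay above OPFR male 6 and OPFR female 5 of the second. The log2 difference was -0.51 ± 0.30 for row A, -0.54 ± 0.32 for row B and -0.67 ± 0.35 for Alas2 (lowest edgeR adjusted p = 0.188). None of the 3 was called, against 12.3% of the 16291 IDs tested there, and 0 had an unadjusted p below 0.05. Without OPFR male 2, row B (-0.88, edgeR adjusted p = 0.0424) and Alas2 (-1.001, edgeR adjusted p = 0.0416) were called and row A was at -0.82 (edgeR adjusted p = 0.0507). In that fit 3287 of 16233 tested IDs were called, against 2007 of 16291 with all OPFR libraries. Without OPFR male 5 the values were -0.28, -0.34 and -0.55, and without OPFR female 4 they were -0.30, -0.30 and -0.37.

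The levels of the 3 abundant members varied together between libraries. Over the 47 libraries the log2 CPM of alpha globin rows A and B had a Pearson r of 0.977 and a Spearman rho of 0.959. For row A with Alas2 they were 0.829 and 0.750, and for row B with Alas2 0.882 and 0.816. The permutation p was 1e-05 for each of these 3 pairs, the smallest that 100000 permutations can give (adjusted over the 6 pairs, 2e-05). Without the 2 libraries farthest from the median on the x axis, r was 0.977, 0.837 and 0.864. Whether reads shared between the alpha rows add to their correlation was not tested.

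The same co-variation was present within the parts of the data. In the controls numbered 1 to 7, r was 0.987 for rows A and B, 0.932 for row A with Alas2 and 0.959 for row B with Alas2, with exact permutation adjusted p = 0.00476, 0.0155 and 0.0113 (n = 7). Spearman's rho there was 0.964, 0.964 and 0.929. In the other 40 libraries r was 0.974, 0.833 and 0.901 and rho 0.951, 0.756 and 0.856, with the smallest permutation p possible (1e-05) for each. As deviations from the mean of each treatment and sex, with the controls numbered 1 to 7 as groups of their own, r was 0.978, 0.866 and 0.920. Row B with Alas2 had an r of 0.787 in the 12 BFR libraries, 0.956 in the 11 OPFR libraries and 0.904 in the 12 FM550 libraries, with permutation p-values adjusted over 3 pairs of 0.00127, 9e-05 and 0.000585. The rho values were 0.755, 0.864 and 0.762. Both were lowest in BFR, the exposure without a library in the high set of 7.

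The row given as beta globin followed the others weakly. Its r was 0.438 with row A (permutation p = 0.00233, adjusted p = 0.00349) and 0.368 with row B (permutation p = 0.0114, adjusted p = 0.0137), and 0.281 with Alas2 (permutation p = 0.0560). Spearman's rho was 0.345, 0.314 and 0.253. Without the 2 farthest libraries r fell to 0.325, 0.256 and 0.264, so the relation with row B rested on those libraries. With so few reads per library, nothing is read from these values.

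**Figure D3:**
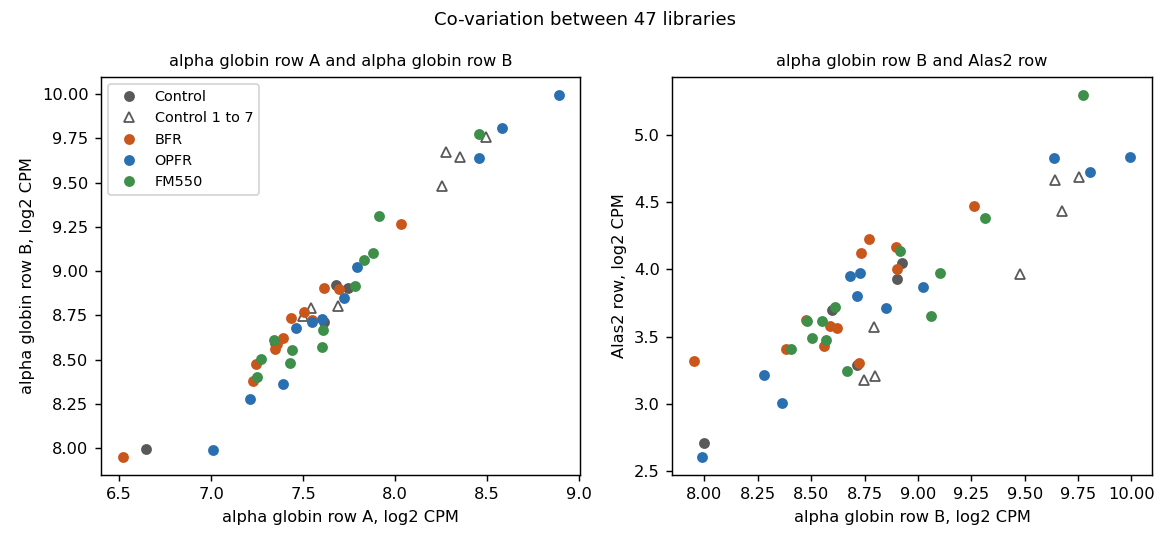
Log2 CPM of alpha globin row A against row B (left) and of row B against Alas2 (right) in 47 libraries. Each point is 1 library, coloured by treatment, with open triangles for controls numbered 1 to 7. Points lie along a line in both panels. In the right panel most of the controls 1 to 7 lie toward low Alas2 for their level of row B.

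The ratio between the alpha rows was steadier than their levels. Row B had 2.334 reads for each read of row A at the median, from 1.954 in FM550 female 2 to 2.698 in BFR male 3. By treatment the median ratio was 2.379 in the controls numbered 1 to 7, 2.374 in the other 5 controls, 2.349 in BFR (n = 12), 2.181 in OPFR (n = 11) and 2.277 in FM550 (n = 12), and the ranges overlapped. Per 1000 globin reads there were 14.1 to 32.0 Alas2 reads, with a median of 21.6. The median was 18.8 in the controls numbered 1 to 7, 21.9 in the other 5 controls, 24.0 in BFR, 20.2 in OPFR and 22.0 in FM550. The levels of these ratios depend on gene length, and only their variation between libraries is described.

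The level of the members did not follow sequencing depth measurably. The mean log2 CPM of the 3 tested members had an r of -0.194 with total counts over the 47 libraries (permutation p = 0.192, adjusted over 6 relations 0.576). Spearman's rho was -0.245 (permutation p = 0.0979, not adjusted). With the number of IDs that had a read, r was 0.0556 (permutation p = 0.712, adjusted p = 0.877) and rho was -0.00798 (permutation p = 0.958, not adjusted). Without the 2 farthest libraries r was -0.245 and -0.0297. In the other 40 libraries r was -0.171 and 0.0533 (rho -0.226 and -0.0197). In the 7 first controls r was -0.0609 and 0.585 (rho -0.214 and 0.571, exact permutation p of r = 0.877 and 0.154).

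Between libraries of the same treatment and sex, the members were among the more variable genes for their level. The SD of log2 CPM within groups, with the controls numbered 1 to 7 as groups of their own, was 0.456 for row A, 0.480 for row B and 0.610 for Alas2, against a median of 0.183 over the 17135 tested IDs. Among the 9048 IDs whose mean log2 CPM was at least that of Alas2, the members ranked 83, 71 and 41 from the highest SD, and the median SD was 0.128. Group means accounted for 25.5%, 22.9% and 8.35% of the variance of row A, row B and Alas2, against a median of 25.0% over all tested IDs. Most of the spread of these transcripts was thus between libraries of the same group, as it was for the median tested ID.

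**Figure D4:**
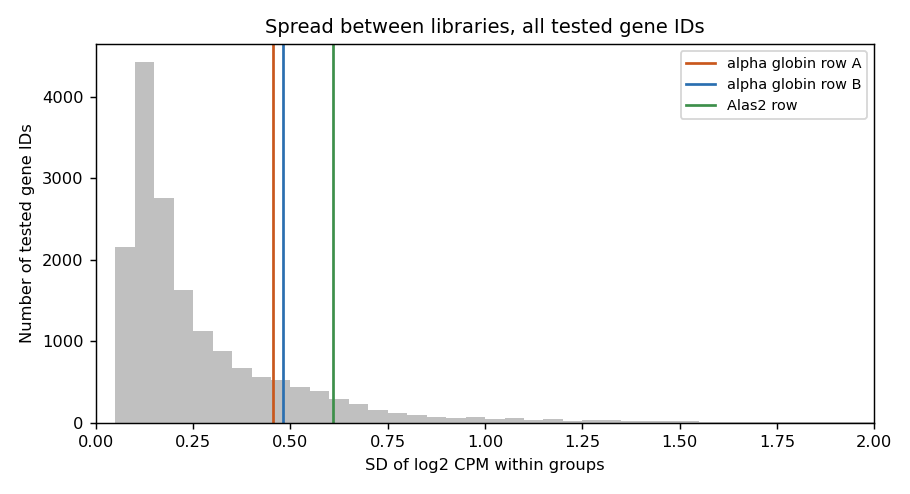
Number of tested gene IDs (vertical axis) by SD of log2 CPM within treatment and sex groups (horizontal axis, shown up to 2). The vertical lines are alpha globin row A (0.456), alpha globin row B (0.480) and Alas2 (0.610), to the right of most of the 17135 IDs, whose median is 0.183.

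Few other genes followed the members closely. Likeness was measured as the Pearson correlation with the mean log2 CPM of both alpha rows and Alas2, over the 40 libraries outside the first 7 controls, as deviations from treatment and sex means. Of 17132 other tested IDs, 8 had an r of at least 0.7 and 0 had one at or below -0.7. The most alike was ENSRNOG00000058105, with r = 0.944 and a median of 379.6 CPM (188.8 to 969.9). The next was ENSRNOG00000061299, with r = 0.912 and a median of 36.1 CPM (19.5 to 111.3). In the controls numbered 1 to 7, which were not used to choose them, r was 0.942 and 0.913, on log2 CPM without taking deviations. Each member against the mean of the other 2 had an r of 0.929 for row A, 0.976 for row B and 0.890 for Alas2 over the same 40 libraries.

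These 2 IDs were not called in the exposure comparisons, but their fold changes did not all match those of the members. OPFR against control over both sexes gave 0.39 ± 0.22 for ENSRNOG00000058105 (edgeR adjusted p = 0.207) and 0.52 ± 0.21 for ENSRNOG00000061299 (edgeR adjusted p = 0.0691). BFR against control gave -0.12 ± 0.21 and -0.10 ± 0.20, and OPFR against BFR gave 0.51 ± 0.22 and 0.62 ± 0.21 (edgeR adjusted p = 0.159 and 0.0731). Unadjusted edgeR p-values were below 0.05 for both IDs in OPFR against BFR (0.0237 and 0.00489). For ENSRNOG00000061299 this also held in OPFR against control, over both sexes (0.0159) and in males (0.0200). Controls numbered 1 to 7 lay above the other 5 by 0.32 ± 0.28 and 0.26 ± 0.37, against 0.61 and 0.67 for alpha rows A and B.

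**Figure D5:**
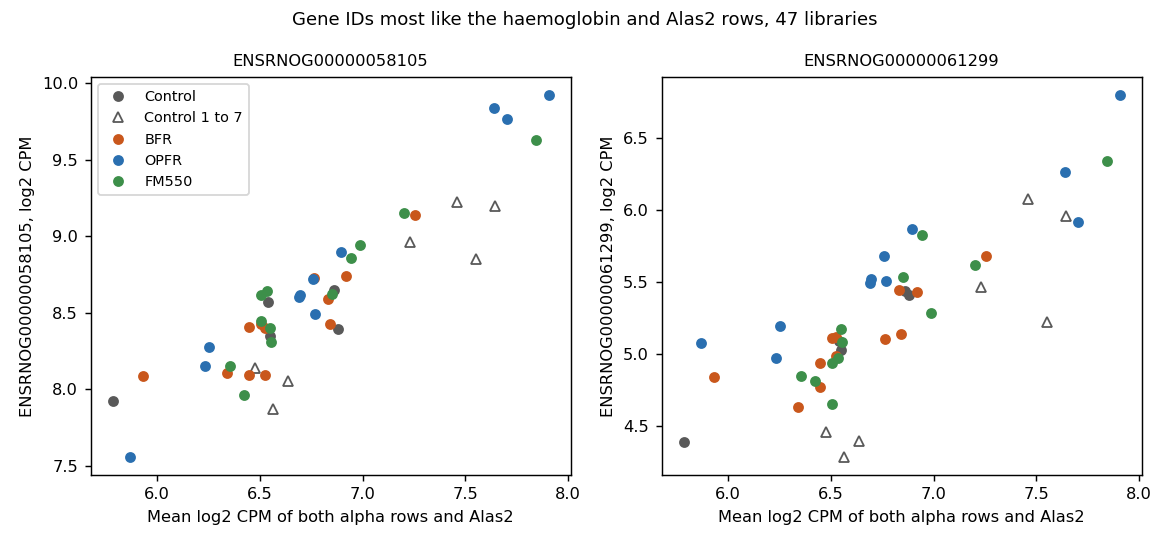
Log2 CPM of ENSRNOG00000058105 (left) and ENSRNOG00000061299 (right) against the mean log2 CPM of both alpha rows and Alas2 in 47 libraries, coloured by treatment, with open triangles for controls numbered 1 to 7. Both rise with the members (r = 0.913 and 0.810 for the values plotted, and 0.944 and 0.912 over the 40 libraries outside controls 1 to 7, as deviations). Most of the controls numbered 1 to 7 lie low for their member level.

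With the members' mean log2 CPM added to the model as a term, the number of all IDs called for BFR males went from 1705 to 1029. For FM550 males the number went from 2022 to 1819 and for OPFR males from 2143 to 2235. Over both sexes it went from 2123 to 2127 for BFR, from 3311 to 3486 for OPFR and from 1393 to 1391 for FM550. For OPFR against BFR it went from 814 to 673. With a term for the controls numbered 1 to 7 in place of the members' level, edgeR called 0 IDs for BFR males (193 at an unadjusted p below 0.05), and with both terms it also called 0 (281 unadjusted). For OPFR against BFR these numbers were 1133 called with the term for those controls and 906 with both. DESeq2 and limma voom were not run with these terms.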

How the data were processed

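The deposited values were raw counts of reads for each Ensembl gene ID, in a single table from the authors. Libraries were directional and poly(A)-selected, per the labels' protocols. FastQC, featureCounts and DESeq2 were used, per the submitters' processing notes; no source used here gives the aligner, genome build or strand setting. Each column belongs to the sample whose title has the same number. The 15 further lines of the table named no gene and held no value. The reference table (GRCr8, 47357 genes) holds Ensembl IDs for 0 genes, so lists of erythroid and cell type genes could not be matched and were not tested. Upstream windows are RefSeq's, found by symbol.

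Tests used edgeR 4.0.16 (R 4.3.3): genes kept by filterByExpr over the 8 groups of treatment and sex (minimum count 10, minimum total 15), TMM scaling, 1 quasi-likelihood model for all 47 libraries with a mean per group, two-sided tests, and Benjamini-Hochberg adjustment over all 17135 tested IDs. TMM factors were 0.95 to 1.10. Divisions by title number were fitted within controls or OPFR with sex as a term. The log2 CPM values have a prior count of 2. Correlations were tested with 100000 permutations, or all 5040 orders for 7 libraries, two-sided. The fitting procedure was tested on simulated data without a difference between controls 1 to 7 and the other controls or within OPFR. That test therefore does not cover the divisions by title number. The labels do not say which samples are separate animals or litters, so p-values measure only the spread between these samples. Between libraries of a group the lowest chi-square per gene was 12.0, where copies of 1 library would give about 1.

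Alternatives were DESeq2 1.42.0, limma 3.58.1 voom with sample weights, RLE size factors, no low-count filter, members left out of the library size, fits of 2 groups, fits without or with a term for controls 1 to 7, without OPFR libraries 31 to 35 or OPFR females 4 and 5, and without each library. For correlations they were subsets of libraries, a prior count of 0.5 and unscaled totals. Those chosen after seeing the data were the term for the members' level, alone or beside that for controls 1 to 7, the alternatives for the divisions by title number, and correlations within treatments or without each library. The members and lists were chosen with earlier results of these data known. The genes named are the 4 members and the 2 IDs with the highest correlation to the tested members' mean.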

Additional observations from a re-analysis of the deposited data

Results flagged for a closer look

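Within each treatment and sex, the highest and lowest library were compared with their nearest neighbour by Dixon's gap test. Of 48 sets of values (8 groups and 6 measures), 7 held a library farther from the rest than the 95% critical value allows. Chance alone marks about 1 set in 20.

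FM550 male 6 stood above the other FM550 males for 3 members: alpha globin row A at 351.8 CPM (next highest 220.4), alpha globin row B at 874.6 CPM (next 482.9) and Alas2 at 39.2 CPM (next 17.6). Because these members vary together, the 3 marks are not independent. BFR female 4 stood apart for alpha globin row A at 261.6 CPM (next 195.9), and BFR male 5 for Alas2 at 17.9 CPM (next 12.3). BFR male 3, the library with the lowest alpha globin levels, had 2.698 row B reads for each row A read (next 2.35). OPFR male 5, the highest library for both alpha rows, had 0.318 CPM in the row given as beta globin (next 0.121), from 20 reads.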

How the results depend on the processing

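No paired analysis was possible because the titles give each sample a number of its own. None of the members was called in the fits of all libraries, and the calls that appeared in other settings were for BFR males and for the OPFR division. The count of members called was 1 without OPFR libraries 31 to 35 (row A, -0.71) and 1 in the fit of BFR and control males alone (row B, -0.73). Over fits that each left out 1 library it ranged from 0 to 2 in BFR males. There row A lay between -0.81 and -0.58 and row B between -0.83 and -0.60. The count also ranged from 0 to 2 in the OPFR division, where row B lay between -0.88 and -0.30 and Alas2 between -1.001 and -0.37. In that division the number of all IDs called ranged from 2 without OPFR female 3 to 4699 without OPFR male 6. For BFR males the share of all tested IDs called in these other settings is not given here.

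The signs of the small values against control depended on the libraries used, and the causes were not tested. The fits without controls 1 to 7 keep only 1 control male, so their signs are not read as reversals. Without controls 1 to 7, BFR gave 0.028 for row A, 0.046 for row B and 0.17 for Alas2, OPFR gave 0.39 for row B, and FM550 gave 0.28 and 0.25 for rows A and B. With a term for those controls, BFR gave 0.016 for row B and 0.15 for Alas2, OPFR gave 0.37 for row B, and FM550 gave 0.23 and 0.23 for rows A and B. Without OPFR 31 to 35, OPFR against control was -0.20 for row A and -0.24 for Alas2, and OPFR against BFR was -0.15 for Alas2. Without OPFR females 4 and 5 these were -0.090, -0.15 and -0.066. With limma voom, OPFR against control was -0.088 for row A and -0.14 for Alas2, OPFR against BFR was -0.24 for Alas2, and BFR against control was 0.10 for Alas2.

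Leaving out 1 library at a time over both sexes, Alas2 lay between -0.15 and 0.015 for BFR, between -0.086 and 0.22 for OPFR and between -0.16 and 0.15 for FM550, and between -0.0046 and 0.29 for OPFR against BFR. Row A lay between -0.080 and 0.13 and row B between -0.20 and 0.053 for OPFR. Of the correlations, row B with the row given as beta globin missed the threshold in controls 1 to 7 (r = 0.722), in the other 40 libraries (r = 0.319) and without the 2 farthest libraries (r = 0.256), and that row with Alas2 passed with unscaled totals (r = 0.305). The 3 pairs of abundant members kept their direction and passed in each subset tested with a p-value. Outside the fits that left out 1 library, 320 of the values recomputed for 45 results were unchanged in direction, side of the threshold or count, and 21 changed sign. The 320 include counts of members called that stayed the same and have no direction. All of the sign changes were among the fold changes, so the 320 overstate how steady the fold changes were. Depth limits the row given as beta globin, with at most 20 reads per library, and not the other members, whose lowest count in any library was 312 reads (Alas2 in control female 4).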
